A study of Brassica rapa subsp. chinensis with 24 samples.

Results

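The comparison described here is the effect of seed dressing with a bacterial consortium on the roots of young plants of Choy-sum, the leaf vegetable Brassica rapa subsp. chinensis. It sets 3 libraries of SAB-treated roots against 3 libraries of untreated roots, both of day 8, out of 24 libraries in the series. SAB stands for Streptomyces, Agromyces and Bacillus, given to sterilized seeds as a suspension in which the Streptomyces culture and the Agromyces-Bacillus culture were mixed in equal parts. Untreated seeds were soaked in magnesium sulfate solution. All plants were wild type and were sampled at the true leaf stage, and each library is polyadenylated RNA of whole roots from an independent biological replicate. Whole roots mix many cell types, so fewer cells of a type and less RNA per cell cannot be told apart.

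Streptomyces and Bacillus are soil bacteria whose members live on and near plant roots, and many of them make antibiotics. Bacteria at the root surface are known to change root gene activity through molecules that the plant perceives and through plant hormones.

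The deposited table names its rows by Arabidopsis-style locus identifiers. Of 20564 identifiers, 0 were found in the gene table at hand, and the file does not pair identifiers with gene names, so no name, role or pathway is given to any of them. At most 2 identifiers that rose and 2 that fell are printed, and the others are described by their counts and ranges. The 2 that fell, and AT5G46240, which rose, have the smallest p of their direction with all libraries. AT2G03500 has the smallest p among those called higher when untreated replicate 3 is left out. The rows of an identifier were summed.

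The 6 libraries held 30894012.93 to 37999455.38 estimated counts, and 93.9% to 94.9% of identifiers were above 0 in a library. Untreated replicate 3 stood apart from its group. Its mean rank correlation with the other untreated libraries was 0.958, against 0.973 and 0.974 for untreated replicates 1 and 2. These 2 means include the correlation with replicate 3 itself. For the SAB libraries the mean within the group was 0.991 to 0.992. With the SAB libraries, untreated replicates 1, 2 and 3 correlated at a mean of 0.978, 0.988 and 0.954. The scaling factor of untreated replicate 3 was 0.914, against 1.01 to 1.07 in the others. Results that rest on the day 8 root effect are therefore also given without it. As a check of the tissue, 229 identifiers were taken whose day 18 level in leaf was 100-fold that in root or more. They made up 29.4% to 32.8% of the counts in day 8 leaves and 0.0600% to 0.119% in day 8 roots. Their share was 0.0882% ± 0.0284 (SD, n = 3) in SAB roots and 0.0884% ± 0.0291 (SD, n = 3) in untreated roots, a difference smaller than the spread between replicates (two-sided exact permutation test, p = 1, where the smallest p possible is 0.1).

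The SAB effect in day 8 roots was tested over 18973 identifiers. In edgeR's quasi-likelihood test, 14 identifiers passed a Benjamini-Hochberg adjusted p of 0.05 (0.0738% of those tested). Of these, 13 fell in SAB roots (0.0685% of those tested) and 1 rose (0.00527%). All 14 differed by more than 2-fold, as did 1152 of the 18973 identifiers tested. In all 14 the 3 SAB libraries lay wholly on 1 side of the 3 untreated ones. Over all identifiers tested, the 3 SAB libraries lay below the untreated ones for 12.2% and above them for 10.4%, so the lack of overlap alone is common in these libraries. Against untreated replicates 1 and 2 alone, the shares were 18.1% below and 18.2% above, with no excess of lower identifiers.

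AT4G12480 had the smallest p. Its level was 11.1, 8.74 and 12.6 CPM (TMM-scaled counts per library of standard size) in untreated replicates 1, 2 and 3, and 1.42, 1.80 and 1.72 CPM in the SAB replicates. Every SAB library was far below the lowest untreated library, and the groups did not overlap. The log2 fold change was -2.72 ± 0.27 (SE, edgeR adjusted p = 0.0140, n = 3 per group), and -2.59 without untreated replicate 3 (edgeR adjusted p = 0.0426). The call was lost without SAB replicate 1, 2 or 3 (edgeR adjusted p = 0.101, 0.0514 and 0.0899). With the day 8 libraries alone (edgeR adjusted p = 0.0723) and with the replicate numbers as a block (0.158) it was lost as well. In these fits the log2 fold change stayed between -2.78 and -2.62.

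AT2G43570 fell as well. It stood at 18.4, 18.1 and 32.4 CPM in the untreated replicates and at 1.60, 3.45 and 1.77 CPM in the SAB replicates. Untreated replicate 3 was the highest library, and the other untreated libraries were still above every SAB library. The log2 fold change was -3.33 ± 0.37 (SE, edgeR adjusted p = 0.0199, n = 3 per group), and -3.00 without untreated replicate 3 (edgeR adjusted p = 0.0426). The call was lost without SAB replicate 1 or 3 (edgeR adjusted p = 0.140 and 0.102), with the day 8 libraries alone (0.221) and with the replicate block (0.158).

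AT5G46240 was the identifier that rose. It was near the lower limit of the table in untreated roots, at 0.261, 0.188 and 0.234 CPM, and reached 3.95, 2.46 and 1.55 CPM in the SAB replicates. The untreated values correspond to 6.51 to 9.37 estimated counts, so its fold change rests on a small base. The log2 fold change was 3.52 ± 0.41 (SE, edgeR adjusted p = 0.0199, n = 3 per group). Without untreated replicate 3 it was 3.54, and the call was lost (edgeR adjusted p = 0.0701). In edgeR the call was also lost without untreated replicate 1 (adjusted p = 0.102) and without SAB replicate 1 or 2 (0.101 and 0.0717). The day 8 libraries alone (edgeR adjusted p = 0.221) and the replicate block (0.158) lost it too. So did limma-voom without and with quality weights (limma adjusted p = 0.186 and 0.0860).

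**Figure D1:**
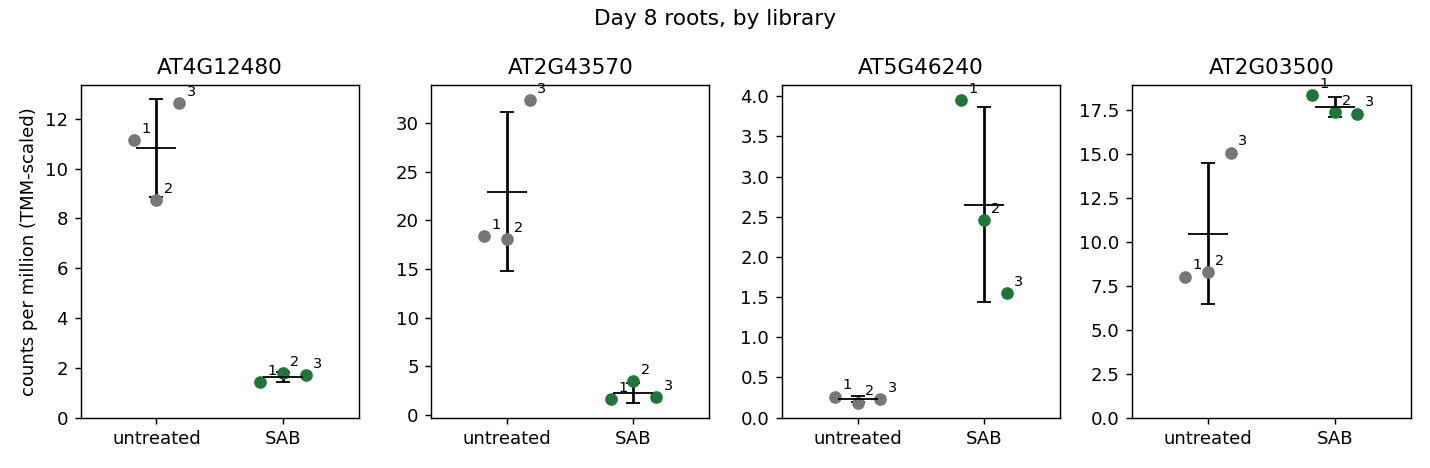
Level of the 4 printed identifiers in each day 8 root library, in TMM-scaled CPM on a linear axis that differs between panels; points are libraries with their replicate number, and the dash and bar are the mean and SD of 3. The SAB libraries lie below the untreated ones for AT4G12480 and AT2G43570 and above them for AT5G46240 and AT2G03500, where untreated replicate 3, at 15.1 CPM, is close to the SAB libraries.

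The other 11 identifiers that fell had log2 fold changes of -3.62 to -1.23, with a median of -2.28 and edgeR adjusted p of 0.0199 to 0.0443. Their mean level ran from 1.56 to 155.6 CPM in untreated roots and from 0.181 to 25.6 CPM in SAB roots. Of the 14 called identifiers, 9 reached 5 CPM as the mean of either group. The 13 that fell summed 1 to 5 rows each, with a median of 2, which is also the median over all identifiers tested. Of the 27 single rows of the 14 called identifiers that passed the filter on low counts, 27 had the sign of their sum. The rows are parts of sums that were chosen in these same libraries, and for some identifiers the only row is the sum itself. The count is therefore a description.

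**Figure D2:**
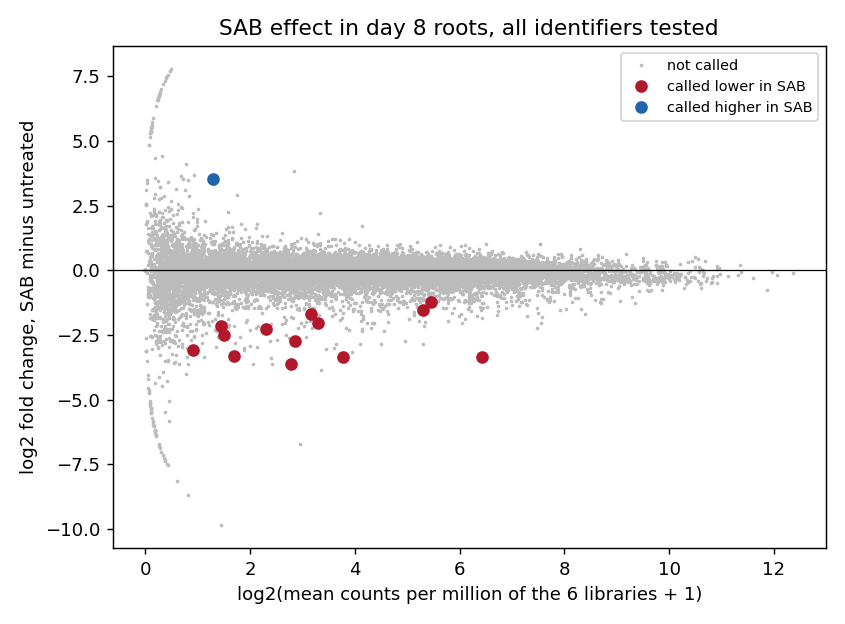
Log2 fold change of SAB against untreated day 8 roots (vertical axis) by mean level of the 6 libraries (horizontal axis, log2 of CPM plus 1) for 18973 identifiers. The 13 called lower and the 1 called higher are marked. In 5 equal classes of mean level over the 12 root libraries, which is not the plotted axis, they number 4, 4, 3, 1 and 2 from lowest to highest.

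Leaving out untreated replicate 3 changed which identifiers were called. Of 19276 identifiers then tested, 6 were called (0.0311%), 3 lower and 3 higher. The 3 lower ones were also called with all libraries, and the 3 higher ones were not. All 14 identifiers called with all libraries kept an unadjusted edgeR p below 0.05. Of all identifiers in this fit, 6.25% were lower and 2.41% were higher at that threshold. The 14 were chosen on libraries that this fit shares, so the count is a description. The 13 lower ones had log2 fold changes of -3.27 to -1.11 with edgeR adjusted p of 0.0426 to 0.0988. Among the 3 that were called higher only in this fit, AT2G03500 had 8.01 and 8.26 CPM in untreated replicates 1 and 2, 15.1 CPM in untreated replicate 3 and 18.3, 17.3 and 17.3 CPM in the SAB replicates. Untreated replicate 3 lay between the other untreated libraries and the SAB libraries. Its log2 fold change was 1.12 ± 0.13 without untreated replicate 3 (SE, edgeR adjusted p = 0.0426) and 0.76 ± 0.22 with it (SE, edgeR adjusted p = 0.223). For the second of the 3, untreated replicate 3 was at 2.22 CPM, the other untreated libraries at 0.0871 and 0.0807 CPM and the SAB libraries at 7.82 to 15.3 CPM. For the last, untreated replicate 3 was at 50.7 CPM, above every SAB library (35.9 to 39.2 CPM), while the other untreated libraries were at 13.9 and 12.8 CPM. All 3 calls thus set the SAB libraries against untreated replicates 1 and 2 and leave out a higher untreated value.

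Below the adjusted threshold, lower values in SAB roots were also the more frequent. At an unadjusted p below 0.05, 1417 identifiers were lower (7.47%) and 530 were higher (2.79%). Without untreated replicate 3 the counts were 1205 lower (6.25%) and 465 higher (2.41%). The median log2 fold change of all identifiers was -0.02 with all libraries and 0.01 without that replicate. Of the 1417 lower identifiers, untreated replicate 1 was the highest of the 6 libraries for 51.6%, untreated replicate 3 for 43.8% and untreated replicate 2 for 4.59%, and SAB replicate 3 was the lowest for 55.6%. Over all identifiers tested these shares were 15.8%, 36.1%, 9.75% and 16.0%, so the untreated libraries were unequal before any selection.

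The share of lower identifiers was larger at higher levels in roots. Identifiers were split into 5 equal classes by mean level over the 12 root libraries. In the lowest class, 4.35% were lower at an unadjusted p below 0.05 and 1.61% were higher. In the highest class, 12.6% were lower and 2.48% were higher. The higher share was largest in the second lowest class, at 3.69%, and fell with level from there. Without untreated replicate 3, 3.77% were lower and 1.29% higher in the lowest class, and 10.8% and 2.61% in the highest. The median log2 fold change of the highest class was -0.08 with all libraries and -0.0094 without that replicate. The adjusted calls did not follow this order, with 4 in the lowest class and 2 in the highest.

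**Figure D3:**
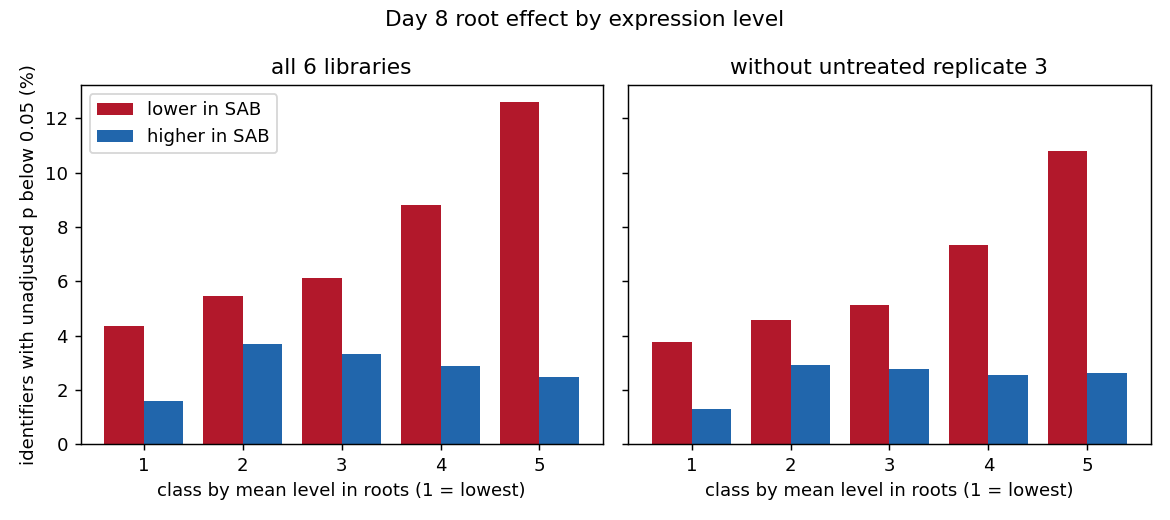
Percent of identifiers with an unadjusted p below 0.05 (vertical axis), lower or higher in SAB day 8 roots, in 5 equal classes of mean level over the 12 root libraries (horizontal axis), with all 6 libraries (left) and without untreated replicate 3 (right). The lower share goes from 4.35% in the lowest class to 12.6% in the highest on the left and from 3.77% to 10.8% on the right.

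The identifiers called at day 8 were then read in the roots of day 18, with their own 3 SAB and 3 untreated libraries. Of the 13 that fell at day 8, 8 had positive and 5 had negative log2 fold changes at day 18, from -0.44 to 1.49, and 1 was called, where 0.764% of all identifiers were. That one was AT4G12480, which rose at day 18. It had 4.17, 4.47 and 3.33 CPM in the untreated and 9.64, 8.23 and 15.8 CPM in the SAB replicates, a log2 fold change of 1.49 ± 0.25 (SE, edgeR adjusted p = 0.0236, n = 3 per group). At day 18 every SAB library of AT4G12480 was above every untreated one, the reverse of day 8. The change of the effect from day 8 to day 18 was called for 10 of the 14 identifiers, against 1.07% of all identifiers tested. Without untreated replicate 3 it was called for 9 of them, against 1.20%. The identifiers were chosen on the day 8 libraries, which enter this change, so the count is a description.

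**Figure D4:**
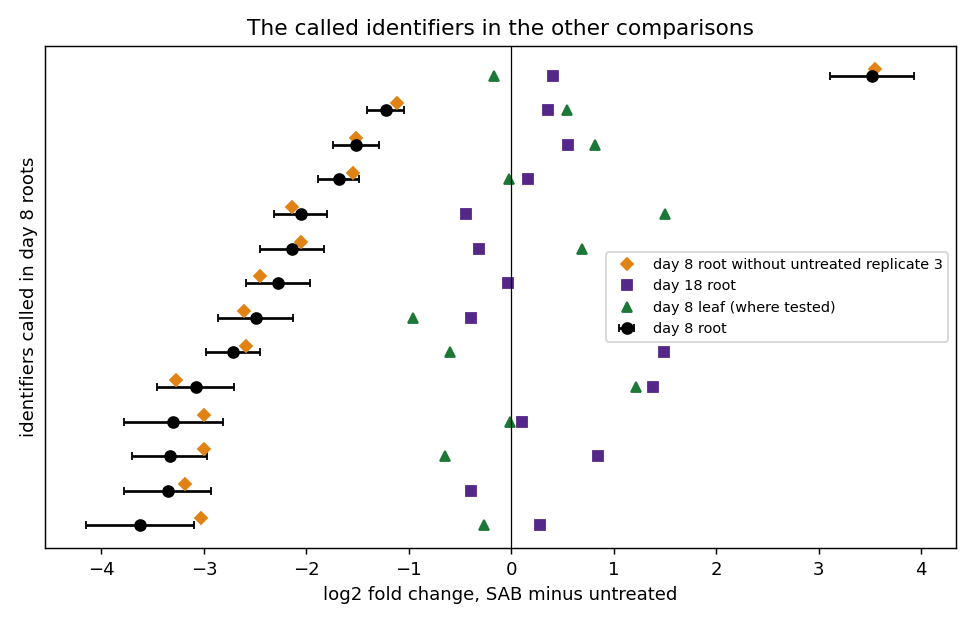
Log2 fold change of SAB against untreated (horizontal axis) for the 14 identifiers called in day 8 roots, 1 per line; circles with SE bars are day 8 roots, diamonds the same without untreated replicate 3, squares day 18 roots and triangles day 8 leaves. Circles and diamonds lie close together, and the day 18 values of the identifiers that fell run from -0.44 to 1.49.

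In day 8 leaves of the same treatment groups, 12 of the 14 were tested and 0 were called by edgeR, where 0.424% of all identifiers were. At an unadjusted p below 0.05, 6 of the 12 differed in leaf, all 6 from the identifiers that fell in root. Of these, 5 were higher in SAB leaves, where 5.62% of all identifiers were, and 1 was lower, where 3.40% were. The effect in roots differed from that in leaves for 9 of the 14 in a fit of all 24 libraries, against 2.08% of all identifiers. It was 8 of the 14 without untreated replicate 3, against 2.11%. Both counts include 1 identifier that was too low in leaf to be tested there, with a difference of -9.26. The same limit holds, since the root libraries chose the identifiers. Across identifiers, the rank correlation of the day 8 root effect was -0.112 with the day 18 root effect (n = 18973) and -0.215 with the day 8 leaf effect (n = 17108). They were -0.104 and -0.141 without untreated replicate 3. These are descriptions over identifiers, which are not independent.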

How the data were processed

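Polyadenylated RNA was sequenced from both ends over 100 bases (per the labels' protocols). The submitters' processing notes list kallisto, Trim Galore and Bowtie2 without roles or versions. The authors' deposited file is a table of estimated counts with 66566 rows, in which 0.991% of the values above 0 are whole to within 1e-09. How many reads a unit stands for was not measured here, so the precision of low values is not known. Values were summed per identifier, rounded, and tested with edgeR 4.0.16 (R 4.3.3; TMM scaling, default filter with a minimum count of 10 and total of 15, quasi-likelihood test) on the 12 root libraries with Benjamini-Hochberg adjustment. Standard errors are the log2 fold change divided by the square root of F. CPM values are scaled by TMM.

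The comparison and the rules were chosen with earlier results of these data known. The written design named gene lists, tissue markers and all called identifiers. They were not used in the text, because no file at hand annotates the identifiers. The printed identifiers were chosen by p as stated above. The set of leaf-high identifiers, the leaf fit and the fit of all 24 libraries were added after the data were seen. Alternatives were no scaling, other scaling factors, filters, DESeq2 1.42.0, limma 3.58.1 voom, single rows, a replicate block and each library left out. The test was checked on simulated data in which 200 identifiers were changed by 2-fold or 4-fold. All 200 had a mean of at least 5 CPM, so changes at lower levels were not covered. In edgeR 12 of 166 calls were false, in limma-voom 5 of 154 and in DESeq2 72 of 249. No simulated library was set apart from its group. Same-numbered libraries correlated in their deviations at 0.116, -0.0617 and 0.0075, so the numbers were not taken to pair the samples.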

Additional observations from a re-analysis of the deposited data

Results flagged for a closer look

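The SAB effect in roots differed between the days for 3 of the printed identifiers in edgeR's test of the change. The difference, day 18 minus day 8, was 4.21 on the log2 scale for AT4G12480, 4.18 for AT2G43570 and -3.12 for AT5G46240. Without untreated replicate 3 it was 4.08, 3.85 and -3.14, and the 3 calls stayed (edgeR adjusted p = 0.00399, 0.0122 and 0.0474). Over all identifiers, 203 were called for this change. The count was 19, 239 and 231 without untreated replicate 1, 2 or 3, and 10, 31 and 13 without SAB replicate 1, 2 or 3. Only leaving out untreated replicate 3 was tried for the 3 printed differences. The day 8 effect also differed between root and leaf, by -2.71 for AT2G43570 (edgeR adjusted p = 0.0447) and by 3.67 for AT5G46240 (edgeR adjusted p = 0.000497). Without untreated replicate 3 the call for AT2G43570 was lost (-2.35, edgeR adjusted p = 0.122). The call for AT5G46240 stayed (3.71, edgeR adjusted p = 0.00126). The identifiers were chosen on the day 8 root libraries, which enter these differences, so the values are descriptions. The causes were not tested.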

How the results depend on the processing

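With all libraries, 14 identifiers were called (1 higher, 13 lower), and the count depended on the setting. It was 0 with the day 8 libraries alone, 0 with the replicate block and 0 with single rows, 6 (5 lower) without scaling factors, 9 (0 higher) with a mean of at least 5 CPM and 5 (0 higher, 5 lower) with limma-voom. DESeq2 called 539 (52 higher, 487 lower), limma-voom with quality weights 782 (141 higher, 641 lower) and a false discovery rate of 0.1 gave 154 (9 higher, 145 lower). Without scaling, the median log2 fold change of all identifiers was 0.08. At 0 calls, 1994 identifiers (day 8 libraries), 1977 (block) and 3663 (single rows) had an unadjusted p below 0.05. Leaving out 1 library gave 0 to 67 calls (0 to 5 higher, 0 to 62 lower): 2 without untreated replicate 1, 67 without untreated replicate 2, 6 without untreated replicate 3, 0 without SAB replicate 1, 1 without SAB replicate 2 and 1 without SAB replicate 3. Without untreated replicate 3, 6 were called, and 0 with the day 8 libraries alone, the replicate block, limma-voom or single rows, 596 with DESeq2, 529 with quality weights and 40 at 0.1, with 0 to 43 on leaving out a further library. For the change between days 203 were called, 128 with limma-voom, 727 with quality weights, 129 with single rows and 623 at 0.1, and 10 to 239 on leaving out 1 library. The block had 0 calls, and the replicate numbers that define it were not shown to pair the samples. The sign of the 4 printed identifiers was the same in all settings run for them. The cause of these differences was not tested.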
